A study of Mus musculus with 6 samples.

Results

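The genes described here build, bundle and pull actin filaments. There are 47 of them among the 55421 genes of the table, grouped by role into actin monomers, tropomyosins, non-muscle myosin II, the calponin family with caldesmon, bundlers and crosslinkers, membrane linkers, adhesion and elongation factors, Arp2/3 subunits with coronin, severing and capping proteins, and monomer binders. They were chosen by name with the knockout against wild-type differences of these same libraries known, and Cald1 and Fscn1 were selected on that contrast. The differences below therefore describe the members. Where a fit over all genes is said to have called a member, that too is part of the description and is not independent evidence.

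A total of 6 libraries, 1 per mouse, were made from tongue epithelium and sequenced from the 3′ end of mRNA (QuantSeq, which gives 1 tag per transcript, so that levels of different genes need no correction for length). The 3 WT mice were homozygous for a floxed IRE1 allele (IRE1F/F), and their 3 KO littermates also carried K14CreERT2, a tamoxifen-activated Cre recombinase driven by keratin 14 regulatory sequence and so expressed in the basal layer. Both groups received tamoxifen by intraperitoneal injection on 4 days in a row and were harvested on day 5, so that the floxed alleles and the drug were common to both. Cre activity without floxed alleles was not analysed here. Age was not given in the sources used here. IRE1 is encoded by Ern1 and detects misfolded protein in the secretory pathway. The peeled mucosa was labelled as keratinocytes, and the basal marker Krt14 was listed at 13185 to 40922 normalised read counts in the 6 libraries. A normalised read count is the number of reads divided by 1 size factor per library.

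In epithelial cells actin monomers are held ready by profilins and thymosins and polymerise into filaments. Arp2/3 makes branched networks at the membrane, Ena/VASP proteins extend straight filaments, and fascin and alpha-actinin bundle them. Tropomyosins and caldesmon decorate filaments and set where myosin II can pull, and in keratinocytes these arrays anchor at adhesions to the basement membrane and to neighbouring cells.

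The libraries held 4606309 to 6286153 reads. The members took 0.641% to 0.787% of the reads in WT and 0.794% to 1.00% in KO, and Actb alone supplied 41.8% to 47.8% of the members' reads. The targeted gene, Ern1, was listed at 102, 105 and 77.1 normalised read counts in WT and at 78.0, 117 and 123 in KO, a log2 difference of 0.15 (limma adjusted p = 0.847 over 10987 genes). The labels do not say which exons were floxed, so a tag from the 3′ end may lie outside the deleted part and does not check the genotype. Library KO1 stood apart in some markers of the tissue under the epithelium. The summed level of 18 skeletal muscle markers was 2619 in KO1, against 176 to 380 in WT, 134 in KO2 and 539 in KO3. The collagen genes Col1a1, Col1a2 and Col3a1 were at 190, 235 and 102 in KO1 and at most at 21.7 in the other 5 libraries. The fibroblast marker Dcn did not share this pattern, at 530 in KO1 and 1329 to 1856 in WT. The summed level of the 12 fibroblast markers was 1523 in KO1, 422 in KO2, 733 in KO3 and 1599 to 2018 in WT.

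Of the 47 members, 42 had a normalised read count of at least 10 in at least 3 libraries and entered the limma fit over all 10987 such genes. Passing the Benjamini-Hochberg threshold of 0.05 over all genes is referred to as being called. The called members numbered 6, all higher in KO, namely Fscn1, Cald1, Actn1, Tpm1, Cnn3 and Enah, and 0 were called lower. Among all genes tested, 1.22% were called higher and 0.583% lower. At an unadjusted p under 0.05, 18 members were higher and 0 lower, where the shares of all genes tested were 6.68% and 6.84%. The edgeR and DESeq2 tests on the recovered reads called 6 and 11 members, in each case 0 of them lower, and called 1.14% and 1.96% of all genes higher. All 3 KO libraries were above all 3 WT libraries for 20 of the 42 members and below them for 0, where the shares of all genes tested were 9.84% and 9.25%. The median log2 difference (KO minus WT, on log2(normalised read count + 1)) was 0.37 over the 42 members and -0.01 over all genes tested, and it was above 0 for 33 members. Because the members were chosen on this contrast, these counts describe the list. In bulk tissue, fewer cells of a type and less RNA per cell cannot be told apart.

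**Figure D1:**
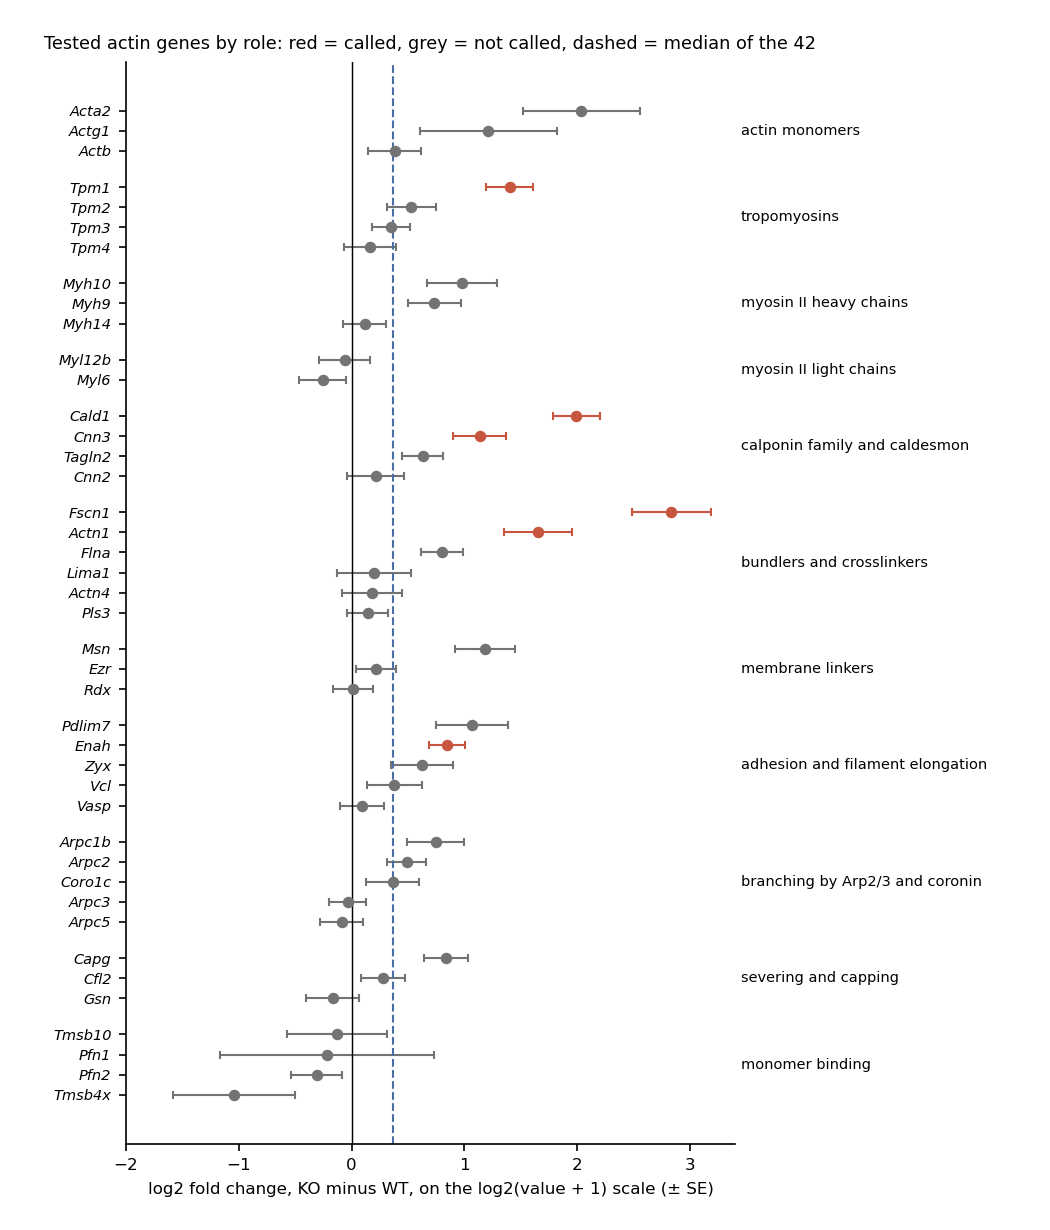
Log2 difference between KO and WT (KO minus WT, on the log2(normalised read count + 1) scale) for the 42 tested actin genes, grouped by role, with bars of 1 standard error; red points are the 6 called genes and the dashed line is the median of 0.37. The highest value is that of Fscn1 at 2.84, and the 4 monomer binders and 2 tested light chains are the roles that lie below 0 throughout.

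Fascin (Fscn1), which packs filaments into the stiff bundles of filopodia and is scarce in resting epithelium, had the highest log2 difference of the 42 tested members. It was at 6.60, 8.73 and 17.0 normalised read counts in WT replicates 1 to 3 and at 88.8, 74.1 and 70.5 in KO. The lowest KO library was above the highest WT library, and the means were 10.8 ± 5.48 and 77.8 ± 9.71 (SD, n = 3 each), a ratio of 7.23. On the log2 scale the difference was 2.84 (SE 0.35). WT replicates 1 and 2 were below the filter value of 10, so Fscn1 entered the fit through its KO libraries. Fscn1 lies at chr5:142960343-142973185 on the plus strand (GRCm38), 53.6 kb from Actb, which is on the minus strand.

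Caldesmon (Cald1, chr6:34598500-34775473), an actin-binding protein that holds back myosin, was at 87.6, 103 and 101 in WT and at 336, 509 and 342 in KO. The WT libraries lay close together and every KO library was above them, with KO2 the highest. The means were 97.1 ± 8.24 and 396 ± 98.4 (SD, n = 3 each), and the log2 difference was 1.99 (SE 0.21). KO2 was the library with the lowest skeletal muscle sum of the 6. The part of other cells, skeletal muscle or not, in the Cald1 level was not tested.

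The bundler alpha-actinin 1 (Actn1, chr12:80167547-80260371), which crosslinks stress fibres, was at 109, 136 and 66.6 in WT and at 312, 448 and 226 in KO, with no overlap (log2 difference 1.65, SE 0.30). The paralogue Actn4 was at 1177, 891 and 576 in WT and at 815, 1240 and 872 in KO. Its groups overlapped (0.18, SE 0.26). The listed level of Actn4 was above that of Actn1 in each of the 6 libraries. However, the last 300 bases of Actn4 lie over an exon of Capn12 on the other strand, so its level is uncertain. Filamin A (Flna), which joins filaments into orthogonal nets, was at 259, 286 and 246 in WT and at 558, 447 and 389 in KO (0.80, SE 0.18) and was not called. Plastin 3 (Pls3) was the highest expressed bundler, at 2194, 1769 and 2319 in WT and at 2392, 2036 and 2495 in KO. The plastin groups overlapped (0.14, SE 0.18), as did those of Lima1, whose product stabilises stress fibres (0.20, SE 0.33).

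**Figure D2:**
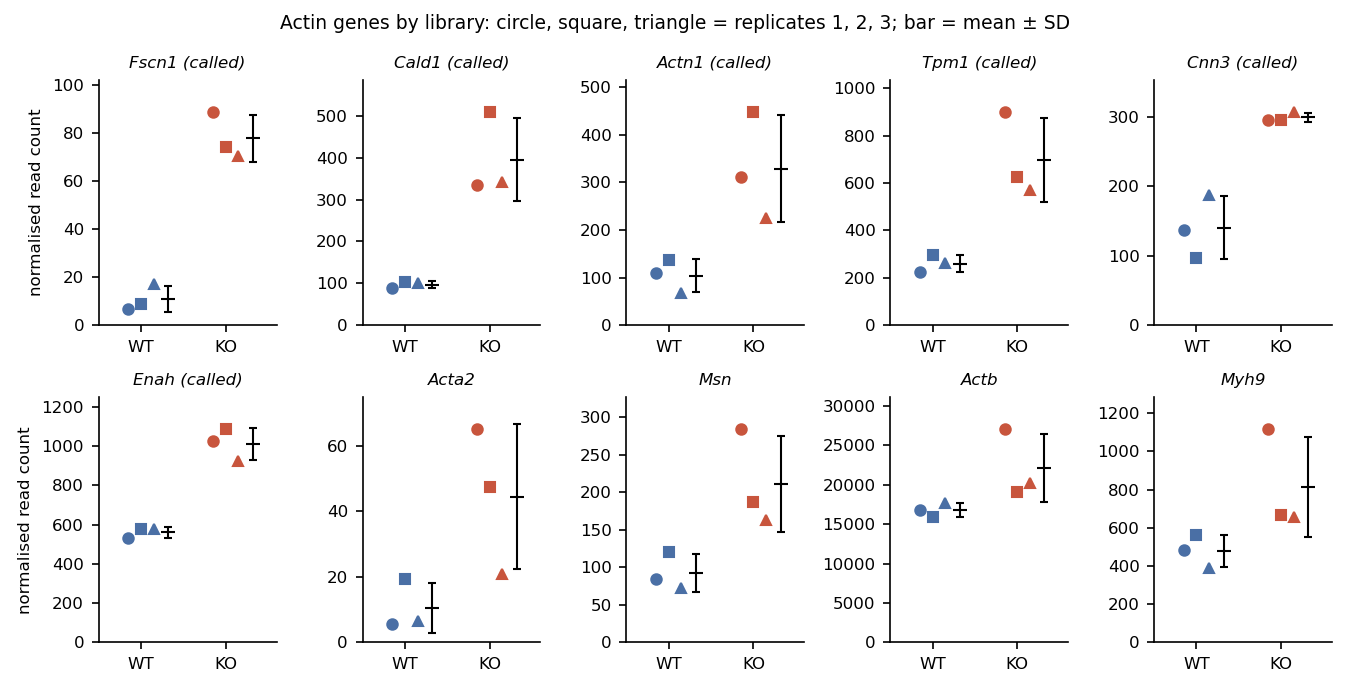
Normalised read counts (vertical axes, from 0) of the 6 called actin genes and of Acta2, Msn, Actb and Myh9 in WT (blue) and KO (red); circles, squares and triangles are replicates 1, 2 and 3 and the black bars are mean ± SD. In all 10 genes the lowest KO library is above the highest WT library, and KO1 is the highest library for Acta2, Msn, Actb and Myh9.

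Tropomyosins coil along the filament and, by isoform, decide which myosins and severing proteins reach it. Tpm1 (chr9:67022590-67049406) was at 222, 295 and 261 in WT and at 899, 623 and 569 in KO, again without overlap (log2 difference 1.40, SE 0.21). Tpm2, the highest expressed tropomyosin, was at 740, 776 and 893 in WT and at 1606, 1020 and 945 in KO (0.53, SE 0.22) and was not called. Tpm3 (0.35, SE 0.17) and Tpm4 (0.17, SE 0.23) were not called either. The share of Tpm1 within the family did not overlap between the groups. It supplied 14.8%, 18.9% and 14.9% of the 4 genes' counts in WT and 27.8%, 27.3% and 26.2% in KO, and Tpm2 49.4% to 50.9% in WT and 43.5% to 49.6% in KO.

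Of the calponin family, Cnn3, an isoform of non-muscle cells that binds filaments beside tropomyosin, was at 138, 96.9 and 187 in WT and at 295, 296 and 307 in KO. The 3 KO libraries lay within a narrow band above the WT range (log2 difference 1.14, SE 0.23). Tagln2, a small calponin-like protein, was the most abundant member of this role, at 2651, 3248 and 3202 in WT and at 5055, 4325 and 4704 in KO (0.63, SE 0.18), without overlap and not called. Cnn2 overlapped between the groups (0.21, SE 0.25). The smooth muscle members were near the floor. Cnn1 was at 2.83, 3.49 and 3.92 in WT and at 4.33, 6.89 and 8.58 in KO, and Tagln at 0, 2.62 and 2.61 in WT and at 2.17, 0 and 1.91 in KO. Neither passed the filter, and a 0 is compatible with as many as 3 reads, which is 2.59 to 3.92 normalised read counts depending on the library.

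Among adhesion and elongation factors, Enah (chr1:181896384-182019990), the Ena/VASP protein Mena that feeds monomers to growing barbed ends, was at 530, 579 and 576 in WT and at 1024, 1085 and 922 in KO (log2 difference 0.84, SE 0.16). Its relative Vasp overlapped between the groups (0.09, SE 0.20). Pdlim7, an adapter of stress fibres, was at 22.6, 38.4 and 57.5 in WT and at 81.3, 87.0 and 67.7 in KO (1.06, SE 0.32), without overlap and not called. The focal adhesion proteins zyxin (Zyx, 0.63, SE 0.28) and vinculin (Vcl, 0.38, SE 0.25) overlapped between the groups.

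The upstream sequences of the members were compared because 6 of them were called in the same direction. RefSeq promoters (GRCm38.p6) matched 45 of the 47 members, with 55 start sites, and the 250 bases before each start were searched on both strands. Actb and Tagln had no match and were not searched. The motifs were the CArG box bound by SRF, a factor that drives many actin genes, CATTCC bound by TEAD factors, the cyclic AMP element TGACGTCA, the AP-1 site TGANTCA and CCAAT. The CArG box was in 6 of the 55 member starts (10.9%), against 1.47% of all 32851 starts. Its holders were Actg1, Cnn2, Lima1, Myl6, Myl9 and Vcl, none of them among the called members. Only exact matches (CC, 6 bases of A or T, then GG) within the 250 bases were counted, so near matches and more distant sites were missed. A window without a match is not read as a gene without an SRF site. CATTCC was in 23.6% of member starts and 12.6% of all, TGACGTCA in 3.64% and 1.55%, TGANTCA in 9.09% and 6.75%, and CCAAT in 36.4% and 33.8%. The sequences below are those of 4 called members and, for contrast, of vinculin as a holder of a CArG box. They are written 5′ to 3′ along the gene and end at the base before the start, with motif matches in capitals (GGAATG and ATTGG are CATTCC and CCAAT on the other strand).
Fscn1, chr5:142960105-142960354, + strand: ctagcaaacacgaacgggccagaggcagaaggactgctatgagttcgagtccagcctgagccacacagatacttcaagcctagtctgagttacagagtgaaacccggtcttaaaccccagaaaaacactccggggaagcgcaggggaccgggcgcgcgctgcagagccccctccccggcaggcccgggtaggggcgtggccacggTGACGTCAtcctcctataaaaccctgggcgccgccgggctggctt
Cald1, chr6:34598254-34598503, + strand: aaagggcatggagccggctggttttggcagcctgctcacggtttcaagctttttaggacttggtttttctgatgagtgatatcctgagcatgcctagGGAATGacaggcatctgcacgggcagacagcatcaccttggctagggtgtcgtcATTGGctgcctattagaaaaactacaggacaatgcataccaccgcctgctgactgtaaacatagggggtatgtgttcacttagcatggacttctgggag
Tpm1, chr9:67049214-67049463, - strand: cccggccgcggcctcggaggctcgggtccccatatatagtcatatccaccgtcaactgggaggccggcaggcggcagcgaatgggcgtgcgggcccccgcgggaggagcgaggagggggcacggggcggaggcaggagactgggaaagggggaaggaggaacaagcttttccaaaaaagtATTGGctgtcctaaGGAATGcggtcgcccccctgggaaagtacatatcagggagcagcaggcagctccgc
Actn1, chr12:80260364-80260613, - strand: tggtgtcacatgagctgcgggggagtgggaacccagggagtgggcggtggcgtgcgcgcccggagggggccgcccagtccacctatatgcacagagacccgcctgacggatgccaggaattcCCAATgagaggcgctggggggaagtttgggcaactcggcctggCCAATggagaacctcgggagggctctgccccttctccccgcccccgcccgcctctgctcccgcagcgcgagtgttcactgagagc
Vcl, chr14:20929148-20929397, + strand: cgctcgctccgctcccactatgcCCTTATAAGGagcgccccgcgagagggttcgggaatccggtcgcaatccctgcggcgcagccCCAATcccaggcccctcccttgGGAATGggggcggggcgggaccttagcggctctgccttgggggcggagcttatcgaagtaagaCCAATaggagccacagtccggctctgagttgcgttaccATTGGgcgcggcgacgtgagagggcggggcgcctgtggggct

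Fscn1 carried the cyclic AMP element 45 bases before its start and no other searched motif. Cald1 had CATTCC at 153 and CCAAT at 99 bases before this start, and a second Cald1 start, further into the gene, had an AP-1 match at 197. In Tpm1 the CATTCC match lay at 56 and CCAAT at 70 bases. Actn1 held only CCAAT, at 128 and 85 bases, Cnn3 only CCAAT, and Enah held none of the searched motifs. In Vcl the CArG box lay 227 bases before the start. A match of letters is a description of the window and not of binding.

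Of the actin monomers, Actb was the highest listed member of all, at 16800, 15878 and 17665 in WT and at 27021, 19037 and 20235 in KO. The groups did not overlap, but KO1 stood well above the other 2 KO libraries (log2 difference 0.38, SE 0.24), and the gene was not called. Smooth muscle actin (Acta2, chr19:34241090-34255590) was at 5.65, 19.2 and 6.53 in WT and at 65.0, 47.4 and 21.0 in KO (2.04, SE 0.52). This was the second highest difference among the 42 tested members and was not called by limma, and KO3 lay close to WT2. Acta2 too entered the fit through its KO libraries. Other smooth muscle and pericyte markers differed in pattern from Acta2. Myh11, the smooth muscle myosin, was at 0, 0 and 1.31 in WT, 15.2 in KO1, 0 in KO2 and 1.91 in KO3, and the pericyte marker Rgs5 was at 47.7 in KO1 and at most at 6.98 in the other 5 libraries. In KO2 Acta2 was thus at 47.4 with Myh11 at 0 and Rgs5 at 2.59. Tagln was near the floor in KO1 too, at 2.17, and does not tell the libraries apart. The light chain Myl9 was at 0, 1.75 and 1.31 in WT and at 27.1, 1.72 and 5.72 in KO, with its high value in KO1. The summed level of the 12 smooth muscle and pericyte markers was 367 to 440 in WT and 308 to 449 in KO, of which Kcnmb1 was at 0 throughout. Most of this sum came from Smtn (144 to 246 over all libraries), Notch3 (68.3 to 93.4) and Cspg4 (37.1 to 90.8). The sum therefore does not follow Myh11, Rgs5 or Des, the last of which was at 45.5 in KO1 and at most at 7.85 elsewhere. The part of these cells in the Acta2 and Myl9 levels was not tested.

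**Figure D3:**
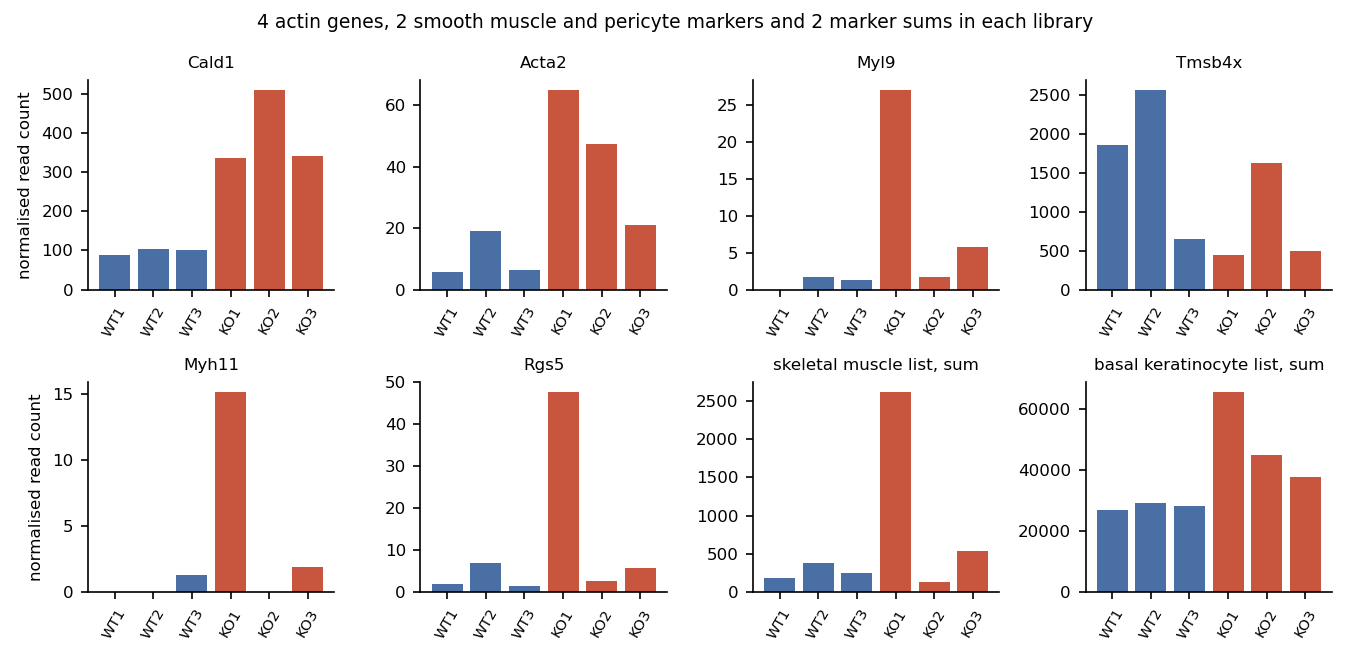
Normalised read counts by library (bars from 0, WT blue, KO red) of Cald1, Acta2, Myl9 and Tmsb4x, of the markers Myh11 and Rgs5, and summed over the skeletal muscle and basal keratinocyte lists. Myl9, Myh11, Rgs5 and the muscle sum share their high library, KO1, while Cald1 is highest in KO2 and Tmsb4x is high in WT1, WT2 and KO2.

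Non-muscle myosin II slides filaments past each other. Its heavy chain Myh9 was at 485, 561 and 389 in WT and at 1116, 668 and 656 in KO (log2 difference 0.73, SE 0.24), without overlap and not called. Myh10 was at 30.2, 15.7 and 23.5 in WT and at 36.8, 47.4 and 52.4 in KO (0.98, SE 0.31), and Myh14 overlapped (0.12, SE 0.19). Myh14 made up 43.8% to 49.6% of the 3 heavy chains' counts in WT and 32.7% to 40.1% in KO. Of the 4 light chains, the 2 that were tested had differences below 0, and Myl9 and Myl12a did not pass the filter. Myl6, the highest listed, was at 697, 599 and 981 in WT and at 712, 550 and 616 in KO (-0.26, SE 0.21). Myl12b overlapped as well (-0.06, SE 0.22).

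The membrane linkers ezrin, moesin and radixin tie filaments to the plasma membrane. Ezrin (Ezr), the main one here, was at 1219, 1282 and 1473 in WT and at 1776, 1329 and 1539 in KO, with overlap (0.22, SE 0.18). Moesin (Msn) was at 83.9, 120 and 71.8 in WT and at 284, 187 and 163 in KO, without overlap (1.18, SE 0.26), and was not called by limma. Its share of the 3 linkers' counts was 3.41% to 6.10% in WT and 7.31% to 10.4% in KO. Radixin (Rdx) was level between the groups in the sense that its difference was 0.01 (SE 0.17).

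Among the Arp2/3 subunits, Arpc2 was the most abundant, at 2891, 2578 and 2928 in WT and at 4172, 3859 and 3740 in KO (log2 difference 0.49, SE 0.17). Its groups did not overlap, nor did those of Arpc1b (0.75, SE 0.25). Arpc3 (-0.03, SE 0.16) and Arpc5 (-0.09, SE 0.19) were near 0, although all of these subunits work in a single complex. Coronin 1C (Coro1c), which acts on Arp2/3 branches, overlapped between the groups (0.36, SE 0.23). Of the severing and capping members, gelsolin (Gsn) was listed highest, at 1722, 1811 and 1442 in WT. It was at 2107, 1187 and 1266 in KO, with KO1 high and the others low (-0.17, SE 0.23). Cfl1, of the same role, was listed too low to be ranked. Its relative Capg, which caps without severing, was at 186, 244 and 239 in WT and at 471, 397 and 333 in KO (0.84, SE 0.20), without overlap and not called. Cfl2, a cofilin that severs old filaments, was at 83.9, 80.3 and 70.5 in WT and at 96.4, 98.2 and 90.5 in KO (0.28, SE 0.19).

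Of the 4 monomer binders, 2 divided the libraries in another way. Thymosin beta 4 (Tmsb4x), which sequesters monomers, was at 1863, 2564 and 653 in WT and at 441, 1628 and 497 in KO. Profilin 1 (Pfn1), which loads monomers onto barbed ends, was at 81.1, 33.2 and 3.92 in WT and at 13.0, 64.6 and 8.58 in KO. In both genes WT1, WT2 and KO2 were the high libraries, so the division ran across the genotypes. The same 3 libraries were the highest for 1 other tested member, Actn4, and outside the members for Gapdh and Rac1. How many of all genes tested share this division was not counted, so it is not read as particular to the monomer binders. The differences had wide errors (-1.04, SE 0.54, for Tmsb4x and -0.22, SE 0.95, for Pfn1). Pfn2 overlapped (-0.31, SE 0.23), and Tmsb10 was at 7.58 to 15.7 in the 6 libraries.

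**Figure D4:**
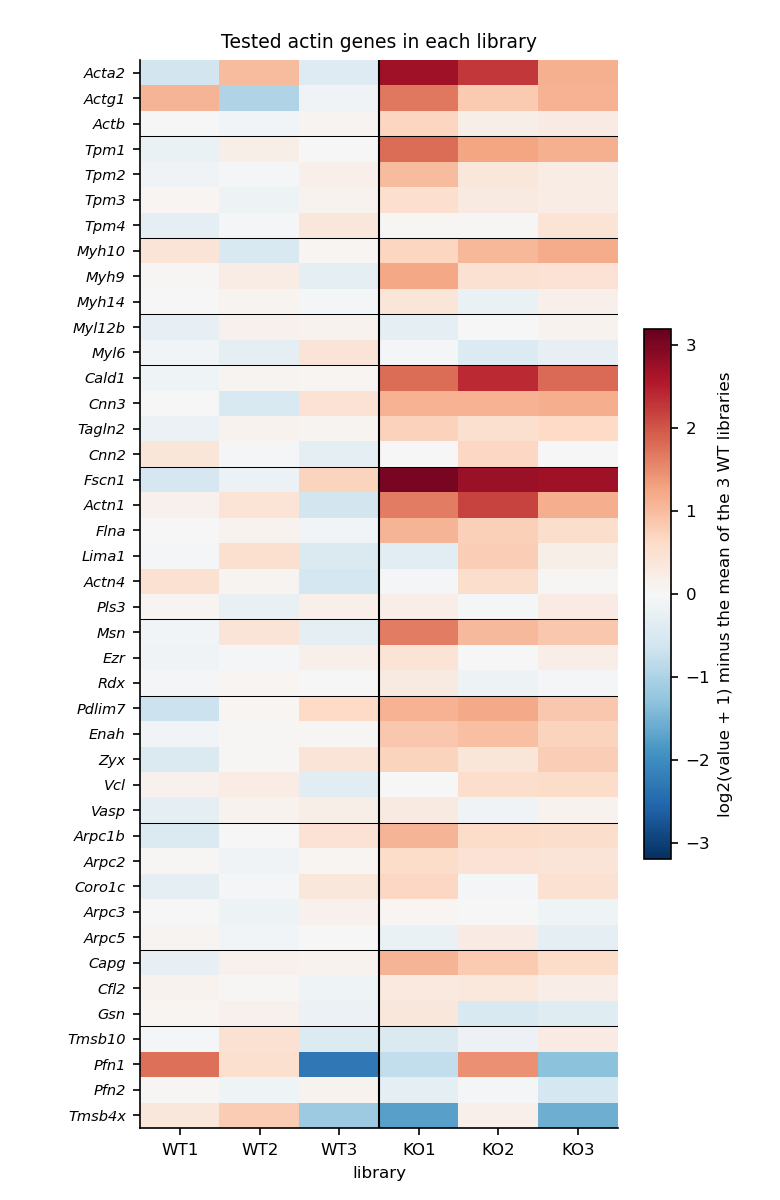
Log2(normalised read count + 1) of each of the 42 tested actin genes in each library, minus the mean of the 3 WT libraries (red above, blue below; lines separate the roles, WT left of the vertical line). The rows of Fscn1, Cald1, Actn1 and Tpm1 are red in all 3 KO libraries, whereas in the rows of Pfn1 and Tmsb4x the columns WT1, WT2 and KO2 are higher than the others.

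Several members were listed at levels too low to read. Cfl1, the main cofilin of most cells, had 1 read in all, Myl12a was at 0 to 4.33, and the cytoplasmic actin Actg1 was at 10.4, 1.75 and 3.92 in WT and at 16.3, 8.62 and 10.5 in KO. Gapdh, used in every cell, was itself listed at 19.6 to 58.6, and the skeletal actin Acta1 at 0 in KO1, where the muscle myosin Myh4 was at 922. The last 300 bases of Cfl1 lie over an exon of Snx32 on the other strand, and 295 bases at the end of Tmsb10 recur in Gm9844 at 95% identity or more (GENCODE M21). No such copy or overlap was found for Actg1, Pfn1 or Myl12a. Over all members, 9 shared at least 100 of these bases with another gene, by copy or overlap. These were Tpm3, Myl6, Tagln, Actn4, Vcl, Arpc1b, Coro1c, Cfl1 and Tmsb10, whose values are therefore uncertain. Whether counting used the strand is not given in the sources used here. A low listing of these genes in this table is not read as a low mRNA level.

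Other genes of the actin system were examined in lists that do not hold the members. Of 6 tested SRF and MRTF factors and cofactors, Fhl2 was called higher, at 221, 223 and 209 in WT and at 356, 415 and 348 in KO (log2 difference 0.77, SE 0.17, limma adjusted p = 0.0456). It was called in 0 of the 6 fits that leave out a library, where its adjusted p reached 0.141. Srf itself was at 1.75 to 12.3 and was not tested. In the 6 other lists on the actin system that are reported here limma called 0 genes. These held 12 other Arp2/3 and WAVE genes (smallest p, Brk1, adjusted p = 0.413), 13 genes of filament ends and turnover (Wdr1, 0.270), 12 other bundlers and crosslinkers, 10 YAP and TEAD genes (Axl, 0.0707), 16 focal adhesion genes (Itga3, 0.123) and 9 other myosin genes (Myl7, 0.225). Over these and the 8 marker lists without a call, 18 of 104 tested genes (17.3%) had an unadjusted p under 0.05, against 13.5% of all genes tested, edgeR called 0 and DESeq2 called 2.

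Markers of the epithelial layers and of other cells were read beside the members. The 10 basal keratinocyte markers summed to 26805 to 29180 in WT and to 65634, 44902 and 37906 in KO1 to KO3. Of these, Itgb4, a hemidesmosome integrin, was called higher (WT mean 341 ± 24.2, KO mean 780 ± 212, SD, n = 3 each; log2 difference 1.16, limma adjusted p = 0.0194), a call that ended without WT1, WT2 or KO1, while Krt15 and Trp63 were lower in every KO library than in any WT library without being called. The 11 tested suprabasal markers gave 0 calls (Crnn, adjusted p = 0.0757). Most of the basal sum came from Krt14 (13185 to 15243 in WT, 23878 to 40922 in KO) and Krt5 (3726 to 6465 in WT, 7304 to 14131 in KO). Neither keratin was called, nor was Itga6, which did not overlap either (494 to 863 in WT, 881 to 1510 in KO). Dst, Col17a1, Lamb3 and Lama3 overlapped between the groups. The sum, led by Krt14 and Krt5 and not by the whole list, was higher in every KO library than in any WT library. So were the called members, but the sum was highest in KO1, Cald1, Actn1 and Enah in KO2 and Cnn3 in KO3. The part of the sum in the differences of the members was not tested. Of 5 tested fibroblast markers, Dcn was called lower (WT mean 1614 ± 266, KO mean 423 ± 198, SD, n = 3 each; limma adjusted p = 0.0152; 0.0542 without WT2). The 1 tested melanocyte marker, Mlana, was called higher (limma adjusted p = 0.0135). It was at 0, 0 and 1.31 in WT and at 26.0, 15.5 and 18.1 in KO. Mlana passed the filter only through the KO libraries and was not called when any 1 of them was left out. The other melanocyte markers did not pass the filter. Dct (mean 9.61 in WT and 6.34 in KO), Tyr (6.39 and 4.86) and Pmel (5.93 and 8.96) overlapped between the groups, and Tyrp1 was at 0 throughout. Skeletal muscle (Ckm, adjusted p = 0.324), smooth muscle and pericyte (Cspg4, 0.479), endothelial (Pecam1, 0.283), leukocyte (Csf1r, 0.196) and nerve and glia markers (Mbp, 0.945) gave 0 calls, and no salivary or taste bud marker passed the filter.

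The 6 called members did not rest equally on the libraries. Fscn1, Cald1 and Tpm1 were called in each of the 6 fits that leave out 1 library. Actn1 was called in 4 of the 6, not without KO1 or KO2, and Cnn3 and Enah each in 1, that without WT3. Library names came in 2 styles, digits for WT1, WT2 and KO1 and a letter for WT3, KO2 and KO3, a difference whose meaning the labels do not give. Within the digit libraries the log2 differences were 3.39 for Fscn1, 1.81 for Cald1, 1.81 for Tpm1, 1.35 for Actn1, 1.34 for Cnn3 and 0.89 for Enah. Within the letter libraries they were 2.03, 2.04, 1.19, 2.24, 0.69 and 0.80 in the same order of genes. Since no KO library overlapped WT in these genes, the direction was fixed, and KO1 and WT3 each stood alone in a style. In the authors' deposited table of called genes 11 members were listed, each with a positive log2 fold change, from 0.63 for Tagln2 to 2.90 for Fscn1. Beside the 6 named above these were Acta2, Capg, Flna, Msn and Tagln2. That table comes from the same 6 libraries and is no independent evidence.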

How the data were processed

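The authors deposited normalised read counts per gene, a signal on a linear scale per the file headers, and results for the genes they called, with columns of log2 fold change, Wald score, p-value and q-value per the file headers. The submitters' processing notes name FastQC, STAR, featureCounts and DESeq2; tool versions, build, annotation and strand setting were not given in the sources used here. Values were whole multiples of 1 step in each library (100% within 0.01 read), so reads were recovered. Rows without a symbol (3192) held 0.0768% to 0.119% of reads and were kept. Value columns left unmatched to a sample numbered 0.

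KO and WT, 3 libraries from separate mice each, were compared by limma 3.58.1 (R 4.3.3) with an intensity trend on log2(value + 1), two-sided, Benjamini-Hochberg over 10987 genes with at least 10 in at least 3 libraries. This scale understates changes of low genes. An exact permutation test of 3 against 3 cannot go below p = 0.1 and was not used. Calls numbered 198, against 190 by edgeR 4.0.16 and 368 by DESeq2 1.42.0 on the reads. Alternatives covered pseudocount, filter, scaling, variance model, covariates, the replicate block and leaving out each library.

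Members and lists were chosen with earlier results of these data known. Values in every library are given for called members, the highest listed member of each role and smooth muscle members. They are also given for some others picked after their values were seen. Of each other list described, the called genes are named, or the 1 with the smallest p; 1 gene and 1 further actin list, which held calls, are not reported here.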

Additional observations from a re-analysis of the deposited data

How the results depend on the processing

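The median log2 difference of the actin genes kept its sign under all 20 alternatives, from 0.31 without KO1 to 0.43 without KO2. None of the 42 tested members moved by more than the spread between replicates under any alternative, in 835 comparisons. For many of these the outcome was fixed in advance. Leaving out 1 library cannot move a group mean by that much. The filters, the robust variance model and the replicate block leave the difference itself unchanged. The count is therefore no measure of stability. The count of called members, 6 in the reported fit, was 13 with a weight per library (12 higher, and Tmsb4x lower) and 11 with DESeq2, and ranged from 3 to 6 when 1 library was left out. The count over all genes, 198, was 590 with a weight per library, 368 with DESeq2 and 82 with the library name style as a covariate, and ranged from 68 to 186 when 1 library was left out (75 without KO1, 80 without WT2, 112 without KO2 and 68 without KO3). With equal library totals Actn1 and Enah were not called, with the name style as a covariate Actn1, Cnn3 and Enah were not while Msn was, and with the skeletal muscle score as a covariate Cnn3 and Enah were not. With the replicate block 178 genes and 6 members were called. Deviations of same-numbered libraries correlated at -0.25, 0.03 and 0.28, so the numbers were not taken to pair the mice. Fscn1 in WT rested on few reads per library, and members near the floor of 3 reads cannot be compared at this depth.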
